A study of Mus musculus with 22 samples.

Results

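Levels of 36 genes that encode postsynaptic scaffold and adhesion proteins were examined in the hippocampal CA1 region of mice kept on an ad libitum (AL) or a calorie-restricted (CR) diet. The 36 genes were taken by name, for their role at the synapse. They make up 36 of the 23361 genes of the expression matrix, every one of them had a row, and all 36 passed the filter on low values that left 16978 genes for testing. The members fall into 10 role groups: the membrane-associated guanylate kinase (MAGUK) scaffolds Dlg1 to Dlg4, the guanylate kinase-associated proteins Dlgap1 to Dlgap4, Shank1 to Shank3, Homer1 to Homer3, the neuroligins Nlgn1 to Nlgn3, the leucine-rich repeat adhesion proteins Lrrtm1 to Lrrtm4, 7 actin and spine proteins, 5 GTPase regulators and adapters, Akap5 with Nrgn, and gephyrin (Gphn).

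CA1 tissue was microdissected from 22 mice, frozen, and sequenced as poly(A)-selected RNA, with 1 library per mouse. There were 5 AL and 5 CR mice at 5 months of age, and 6 AL and 6 CR mice at 15 months. All 4 groups were wild-type females of the same hybrid cross (Swiss Webster x DBA/C57BL6), and CR mice had received fewer calories, through less carbohydrate, since young adulthood. The design therefore asks how these genes differ between ages on either diet, and between diets at either age. Restriction began at the same age in both CR groups, so the older CR mice had been restricted for longer. Age and length of restriction cannot be told apart in CR mice.

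At an excitatory synapse, the postsynaptic density is a protein meshwork beneath the membrane. MAGUK proteins hold glutamate receptors and adhesion molecules there, Dlgap proteins link them to Shank, and Shank joins Homer, which reaches metabotropic glutamate receptors and internal calcium stores. Neuroligins and Lrrtm proteins cross the cleft to bind presynaptic partners, neurexins among them, and the deeper layer connects to the actin cytoskeleton of the dendritic spine. Gephyrin is the counterpart at inhibitory synapses, where it clusters GABA-A and glycine receptors.

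The deposited values are fragments per kilobase of transcript scaled to the mapped total of the library (FPKM), a level that can be compared between genes, and the files give no read total for any library. Median FPKM of the libraries ranged from 2.51 to 3.10, and the correlation between any pair of libraries over genes ranged from 0.889 to 0.945. No marker of the 11 cell type lists was at 0 in any library. CA1 pyramidal neuron markers were present in every group but lower in AL mice at 15 months, when 5 of 7 fell (median log2 change -1.85 over the list), while 4 of 8 markers of neocortex and subiculum, the regions bordering CA1, rose (median 0.64). Their summed level ranged from 249 to 531 FPKM at 5 months and from 182 to 290 FPKM at 15 months for CA1, and from 79.1 to 115 and from 120 to 202 FPKM for neocortex and subiculum. Not every marker went that way. Wfs1 of the CA1 list spanned 33.7 to 88.2 FPKM at 5 months and 70.2 to 106 FPKM at 15 months in AL mice. Of the neocortex and subiculum markers, 2 had a negative log2 change, the lowest -1.03. These opposite differences did not pass the test. A region score, the mean log2 level of the neocortex and subiculum markers minus that of the CA1 markers, ranged from -3.02 to -1.52 in AL mice at 5 months and from -0.84 to 0.61 at 15 months. These ranges did not overlap, so age and the region score cannot be told apart in AL mice. At 15 months the CR libraries ranged from -2.59 to 0.13, and replicates 1 and 3 of that group stood apart with scores of -1.86 and -2.59. CR libraries at 5 months ranged from -2.89 to -2.21, and of the older CR libraries only replicate 3 lay within that range. Age and the region score are thus hard to tell apart in CR mice too. Of the other lists, 3 of 5 choroid plexus, 2 of 5 CA3, 2 of 5 dentate, 1 of 6 oligodendrocyte, 1 of 5 microglia and 1 of 5 astrocyte markers fell with age in AL mice, 1 other astrocyte marker rose, and none of 7 interneuron, 6 general neuron or 4 endothelial markers passed the test.

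Promoters are shown for 5 of the 8 members that changed with age in AL mice, as described below. Lrrtm1 and Lrrtm3 among them are paralogs that went in opposite directions. Each is the RefSeq window of the GRCm38 build from 250 bases before to 50 bases after the annotated start, read 5′ to 3′ on the strand of the gene, with GC boxes (GGGCGG on either strand) and E-boxes (CACGTG) in capitals. Dlg1 lies at chr16:31663193-31663492 (plus strand, the most upstream of its 4 windows), Homer3 at chr8:70282749-70283048 (plus), Lrrtm1 at chr6:77242227-77242526 (plus), Lrrtm3 at chr10:64090206-64090505 (minus) and Itpka at chr2:119742087-119742386 (plus).
Dlg1: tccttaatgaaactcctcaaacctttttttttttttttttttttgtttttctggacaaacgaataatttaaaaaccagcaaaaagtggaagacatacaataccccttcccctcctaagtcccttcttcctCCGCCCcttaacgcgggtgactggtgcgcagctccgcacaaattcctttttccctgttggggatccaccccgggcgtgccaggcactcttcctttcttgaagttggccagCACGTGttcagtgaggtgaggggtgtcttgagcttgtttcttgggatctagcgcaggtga
Homer3: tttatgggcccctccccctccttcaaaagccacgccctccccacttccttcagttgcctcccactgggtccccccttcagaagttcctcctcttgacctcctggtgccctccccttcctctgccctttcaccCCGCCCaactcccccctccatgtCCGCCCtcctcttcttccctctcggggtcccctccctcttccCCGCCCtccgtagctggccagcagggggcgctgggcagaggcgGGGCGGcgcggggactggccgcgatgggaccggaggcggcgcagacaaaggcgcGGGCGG
Lrrtm1: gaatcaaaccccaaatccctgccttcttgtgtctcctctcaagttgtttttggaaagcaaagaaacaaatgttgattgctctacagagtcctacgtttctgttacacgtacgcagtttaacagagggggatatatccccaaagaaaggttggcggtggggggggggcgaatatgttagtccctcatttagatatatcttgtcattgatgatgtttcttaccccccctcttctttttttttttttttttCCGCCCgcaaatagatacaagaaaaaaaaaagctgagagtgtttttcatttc
Lrrtm3: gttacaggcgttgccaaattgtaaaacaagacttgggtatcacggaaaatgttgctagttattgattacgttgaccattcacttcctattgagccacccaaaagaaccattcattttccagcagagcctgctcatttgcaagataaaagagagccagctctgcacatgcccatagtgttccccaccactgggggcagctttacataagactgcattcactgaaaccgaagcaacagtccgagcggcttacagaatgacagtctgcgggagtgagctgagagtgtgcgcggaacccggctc
Itpka: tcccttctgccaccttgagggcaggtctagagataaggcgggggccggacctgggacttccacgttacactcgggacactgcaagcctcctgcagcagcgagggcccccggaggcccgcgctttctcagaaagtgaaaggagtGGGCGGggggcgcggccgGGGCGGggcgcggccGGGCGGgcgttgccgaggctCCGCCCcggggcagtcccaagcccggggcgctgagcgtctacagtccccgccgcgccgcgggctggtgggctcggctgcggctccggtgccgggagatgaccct

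The Homer3 window held 5 GC boxes and the Itpka window 4, against 1 each in Dlg1 and Lrrtm1 and 0 in Lrrtm3. Their GC content was 69.7% in Homer3 and 73.7% in Itpka, and 47.3%, 40.7% and 48.7% in Dlg1, Lrrtm1 and Lrrtm3. The window of Gphn, which also fell with age in AL mice and is not shown, had 1 GC box and a GC content of 77%. RefSeq windows were matched for 30 of the 36 members, 48 windows in all, with a median GC content of 59.7% against 52.7% over all 32851 windows. A GC box was present in 25 of these 48 windows, belonging to 21 members (35.7% of all windows hold one). The E-box was present in 5 windows of 4 members (7.15% of all windows), the letters TATAAA in 6 windows of 6 members (13.6%), and the cyclic AMP response element TGACGTCA in 0 windows (1.79%). The half-site TGACG, which also lies within the full element, was present in 8 windows of 7 members (20.8%). These are matches of letters only.

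The members ranged from a level above 39.4% of the genes tested to one above 99.2% of them. Nrgn, which encodes neurogranin, a calmodulin-binding protein of dendrites, had the highest mean over all libraries at 578 FPKM. It was followed by Ppp1r9b (281 FPKM), which encodes the spine protein spinophilin, Dlg4 (217 FPKM), the principal MAGUK of the postsynaptic density, Dlgap1 (134 FPKM) and Itpka (123 FPKM). The lowest were Homer3 (10.4 FPKM), Lrrtm3 (9.50 FPKM), Lrrtm4 (9.40 FPKM) and Actn2 (5.17 FPKM), which encodes an actin cross-linker. Within families the order of these means was Dlg4, Dlg2, Dlg3 and Dlg1 for MAGUKs, and Dlgap1, Dlgap3, Dlgap4 and Dlgap2 for the next layer. Neighbours in this order could overlap within a group. In AL mice Dlg2 (63.1 to 76.7 FPKM) overlapped Dlg3 (58.6 to 70.5 FPKM) at 5 months. At 15 months Dlg3 (43.5 to 53.7 FPKM) overlapped Dlg1 (36.6 to 55.4 FPKM). Nlgn2, the neuroligin of inhibitory synapses, averaged 59.4 FPKM against 23.3 FPKM for Nlgn3 and 19.8 FPKM for Nlgn1. Nlgn3 and Nlgn1 lay close together, and their ranges overlapped in each of the 4 groups.

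**Figure D1:**
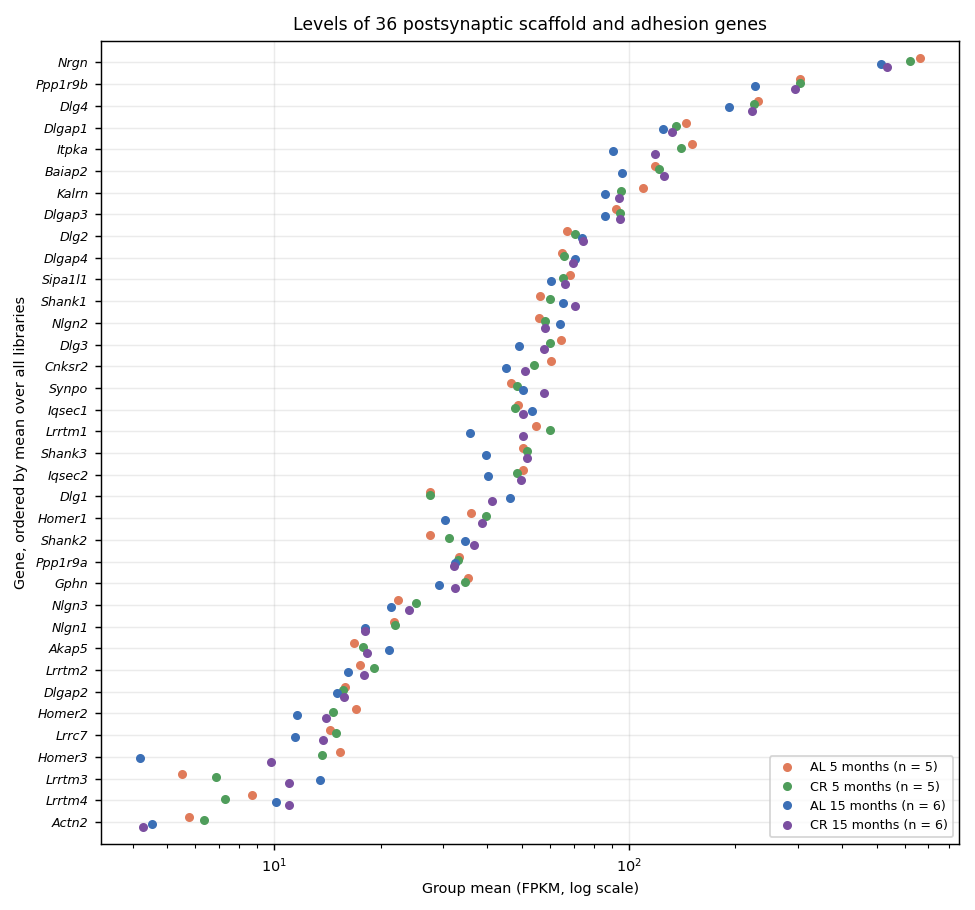
Group mean FPKM (log scale) of the 36 members, ordered by their mean over all 22 libraries, with 1 point for each of the 4 groups. The members span from 5.17 FPKM for Actn2 to 578 FPKM for Nrgn, and the points of the 4 groups lie furthest apart for Homer3 and Lrrtm3.

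With age in AL mice, 8 of the 36 members changed: Dlg1 and Lrrtm3 rose, and Dlg3, Homer2, Homer3, Lrrtm1, Itpka and Gphn fell. These 8 are 22.2% of the members, beside 20.6% of all genes called in the same comparison (limma, Benjamini-Hochberg adjusted p under 0.05, 3502 of 16978 genes). Fitting the 2 AL groups alone gave 17 of 36 members, beside 25.2% of all genes. By direction, 10.7% of all genes rose and 9.97% fell. The differences leaned downward among the members, 25 of 36 having a negative log2 fold change, with a median of -0.24 over the members and -0.00 over all genes tested. Under quantile normalization the members' median was -0.14 and 13 members had an unadjusted p under 0.05, beside 34.4% of all genes. In the fit as reported 18 of 36 members had an unadjusted p under 0.05, beside 35.2% of all genes. The libraries of the age groups did not overlap at all for 9 members, Iqsec2 and Lrrc7 in addition to the called genes other than Homer2, and this was so for 14.0% of all genes. In bulk tissue, fewer cells of a type and less RNA per cell cannot be told apart.

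Among the MAGUK scaffolds, Dlg1 and Dlg3 moved in opposite directions. Dlg1 encodes the family member that binds the Gria1 subunit of AMPA receptors. In AL mice at 5 months its level was 35.0, 24.9, 25.6, 26.5 and 26.1 FPKM in the 5 libraries, and at 15 months its lowest, median and highest values were 36.6, 47.5 and 55.4 FPKM. Every older AL library was above every younger one. Means were 27.6 ± 4.18 FPKM (SD, n = 5) and 46.4 ± 6.71 FPKM (SD, n = 6), a log2 fold change of 0.74 (SE 0.13, limma adjusted p = 0.000831, exact permutation p = 0.00216, the smallest that 5 against 6 libraries allow). Dlg1 was also the member that rose in CR mice, from 26.7, 26.7, 29.1, 30.8 and 24.4 FPKM at 5 months to a lowest, median and highest value of 31.2, 38.8 and 56.2 FPKM at 15 months. Dlg3, whose protein is prominent at developing excitatory synapses, went from 64.5 ± 5.63 FPKM (SD, n = 5) to 49.0 ± 4.01 FPKM (SD, n = 6) in AL mice (log2 fold change -0.40, SE 0.09, adjusted p = 0.00320). Its older AL libraries, 43.5 to 53.7 FPKM, all lay below the younger ones, 58.6 to 70.5 FPKM. Dlg2 and Dlg4 did not pass the test, with log2 fold changes of 0.13 and -0.27 (adjusted p = 0.355 and 0.182).

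**Figure D2:**
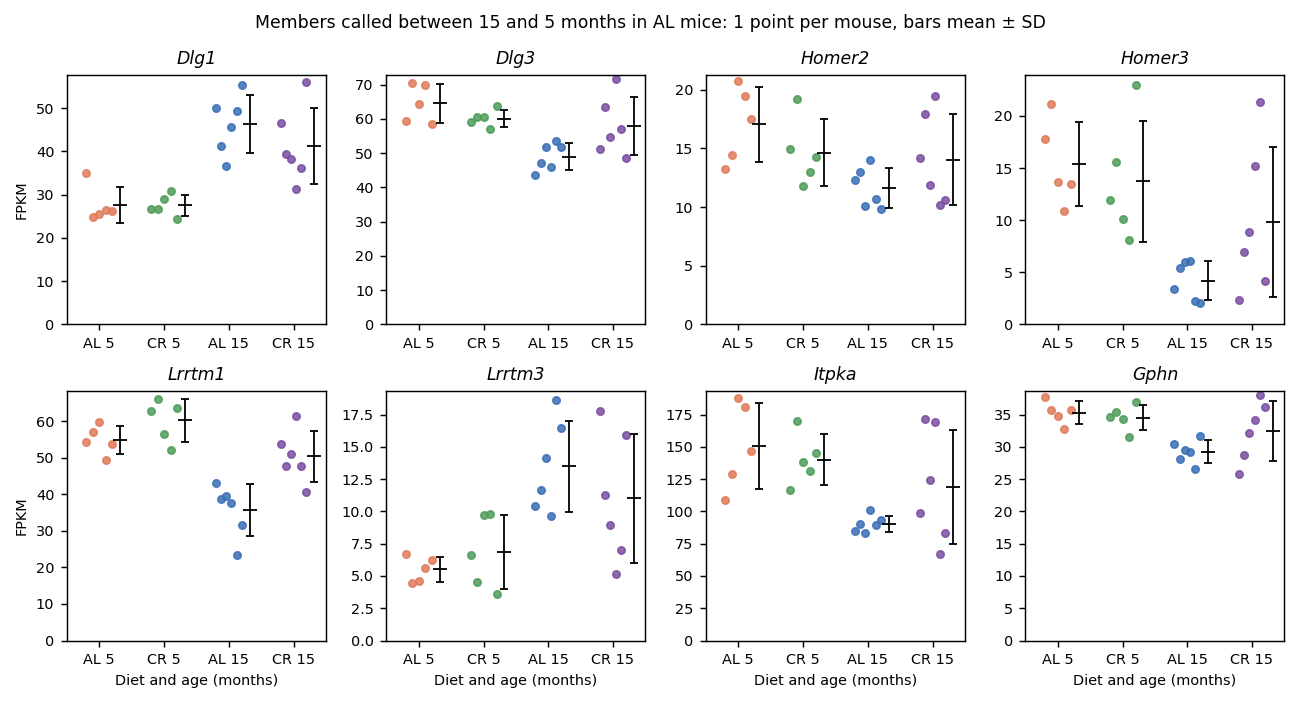
FPKM of the 8 members called between 15 and 5 months in AL mice, with 1 point per mouse by diet and age in months and black bars for the mean ± SD of each group; axes start at 0. Older AL libraries sit above the younger for Dlg1 and Lrrtm3 and below for the other members, with some overlap for Homer2.

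All 3 Homer genes had lower means in older AL mice, and Homer2 and Homer3 passed the test. Homer proteins are adapters whose shared domain binds proline-rich motifs in metabotropic glutamate receptors and Shank. Homer3 read 17.8, 21.1, 13.7, 10.9 and 13.4 FPKM in AL mice at 5 months, and its lowest, median and highest values at 15 months were 2.09, 4.39 and 6.11 FPKM. The groups were fully separated, and the drop was the largest among the members, a log2 fold change of -1.94 (SE 0.45, adjusted p = 0.00501, exact permutation p = 0.00216). CR mice read 11.9, 15.6, 10.1, 8.05 and 22.9 FPKM at 5 months and 2.35, 7.87 and 21.3 FPKM as lowest, median and highest at 15 months, so older CR mice reached values of either AL group. Exons of Homer3 share 874 of their 3440 bases with Ddx49 on the opposite strand, and the library kit does not mark strand, so reads in the shared stretch could belong to either gene. Ddx49 itself went from 21.4 ± 1.74 to 17.8 ± 1.58 FPKM (SD, n = 5 and 6) in AL mice, a log2 fold change of -0.27 (adjusted p = 0.0634). Homer2 went from 17.1 ± 3.21 to 11.7 ± 1.70 FPKM (SD, n = 5 and 6; log2 fold change -0.54, SE 0.17, adjusted p = 0.0308), with overlap between the ages at 13.2 to 14.0 FPKM. Its exons share 525 of 12621 bases with Gm44570 on the opposite strand, which has no row in the expression matrix. Homer1, which includes an activity-induced short form not separated in these gene-level values, had a log2 fold change of -0.30 (adjusted p = 0.365). The 6 older AL libraries spread from 23.3 to 49.4 FPKM for this gene.

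Neither the Dlgap nor the Shank layer had a called member. Dlgap1 came closest among the Dlgap genes, with 145 ± 12.9 FPKM at 5 months and 125 ± 10.4 FPKM at 15 months in AL mice (SD, n = 5 and 6; log2 fold change -0.21, adjusted p = 0.0990), and the other 3 lay between -0.10 and 0.12. The Shank genes, master scaffolds of the density, did not share a direction. Shank2 had a log2 fold change of 0.32 (adjusted p = 0.0660), Shank1 of 0.21 (adjusted p = 0.419) and Shank3 of -0.34 (adjusted p = 0.123). All 6 older AL libraries lay above the younger median for Shank2 and below it for Shank3.

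Of the adhesion genes, Lrrtm1 and Lrrtm3 changed and the 3 neuroligins did not pass the test. Lrrtm1, an excitatory synapse organizer that binds neurexins, measured 54.4, 57.0, 59.8, 49.4 and 53.9 FPKM in AL mice at 5 months and had a lowest, median and highest value of 23.3, 38.2 and 43.1 FPKM at 15 months. No older AL library reached the lowest younger one. Its mean went from 54.9 ± 3.88 to 35.7 ± 7.12 FPKM (SD, n = 5 and 6), a log2 fold change of -0.64 (SE 0.13, adjusted p = 0.00172, exact permutation p = 0.00433). Lrrtm3, a paralog that binds heparan sulfate proteoglycans as well, measured 6.67, 4.44, 4.62, 5.61 and 6.25 FPKM at 5 months, and its lowest, median and highest values at 15 months were 9.68, 12.9 and 18.6 FPKM. Here the older AL libraries were all higher, with means of 5.52 ± 0.98 and 13.5 ± 3.53 FPKM (SD, n = 5 and 6) and a log2 fold change of 1.25 (SE 0.30, adjusted p = 0.00638). Lrrtm1 lies within Ctnna2 and Lrrtm3 within Ctnna3, each on the opposite strand and with 0 exon bases shared. Ctnna2 had a log2 fold change of 0.09 (adjusted p = 0.498) and Ctnna3, at a mean of 0.455 FPKM in AL mice at 5 months, one of 0.08 (adjusted p = 0.874). Lrrtm2 and Lrrtm4 gave log2 fold changes of -0.13 and 0.27 (adjusted p = 0.419 and 0.516). Nlgn1, Nlgn2 and Nlgn3 gave -0.27, 0.20 and -0.07 (adjusted p = 0.184, 0.129 and 0.632), and for Nlgn2 all 6 older AL libraries lay above the younger median.

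In AL mice 6 of the 7 actin and spine members had a negative log2 fold change with age, and Itpka passed the test. Itpka encodes a kinase of inositol trisphosphate that also bundles actin in spines. In AL mice its values at 5 months were 108, 129, 187, 181 and 147 FPKM, and at 15 months the lowest, median and highest were 83.2, 89.9 and 101 FPKM. The older AL libraries were tightly grouped below all younger ones, with means of 90.4 ± 6.44 and 151 ± 33.6 FPKM (SD, n = 6 and 5), a log2 fold change of -0.71 (SE 0.20, adjusted p = 0.0168, exact permutation p = 0.00216). In CR mice the values were 116, 170, 138, 131 and 145 FPKM at 5 months and 67.0, 111 and 172 FPKM as lowest, median and highest at 15 months, a spread that reached past the older AL libraries on either side. Ppp1r9b, which brings protein phosphatase to spines, had a log2 fold change of -0.42 (adjusted p = 0.0571), with all 6 older AL libraries below the younger median. Baiap2, a regulator of actin in spines, had -0.31 (adjusted p = 0.0970), and Kalrn, an exchange factor for Rac, had -0.38 (adjusted p = 0.167). Actn2, Ppp1r9a and Synpo, the last a component of the spine apparatus, gave -0.42, -0.06 and 0.10 (adjusted p = 0.283, 0.790 and 0.656).

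No GTPase regulator or adapter was called. Cnksr2, a scaffold in Ras signaling, had a log2 fold change of -0.44 (adjusted p = 0.0790), Lrrc7 (densin) of -0.33 (adjusted p = 0.140) and Iqsec2, an exchange factor for Arf, of -0.32 (adjusted p = 0.143). For Lrrc7 the older AL libraries spanned 9.89 to 12.6 FPKM and the younger 13.1 to 15.9 FPKM, and for Iqsec2 they spanned 35.8 to 44.9 and 45.2 to 59.7 FPKM, so neither gene overlapped between ages although neither was called. Sipa1l1, which inactivates Rap, and Iqsec1 gave -0.19 and 0.13 (adjusted p = 0.373 and 0.361). Akap5, the anchor of protein kinase A at the postsynaptic membrane, had 0.32 (adjusted p = 0.0790), and Nrgn had -0.41 (adjusted p = 0.0926). Nrgn in older AL mice spread from 317 to 728 FPKM.

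Gphn fell by a small amount with little spread. AL mice at 5 months had 37.6, 35.6, 34.7, 32.8 and 35.7 FPKM, and at 15 months the lowest, median and highest values were 26.5, 29.3 and 31.7 FPKM. The AL ages did not overlap, and the log2 fold change was -0.27 (SE 0.08, adjusted p = 0.0214, exact permutation p = 0.00216). In CR mice the 5 month old libraries read 34.6, 35.4, 34.4, 31.5 and 36.9 FPKM and the 15 month old libraries 25.7, 33.2 and 38.1 FPKM as lowest, median and highest, and these ages overlapped. Exons of Gphn share 147 of 3749 bases with Gm48226 on the opposite strand, which has no row in the expression matrix.

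**Figure D3:**
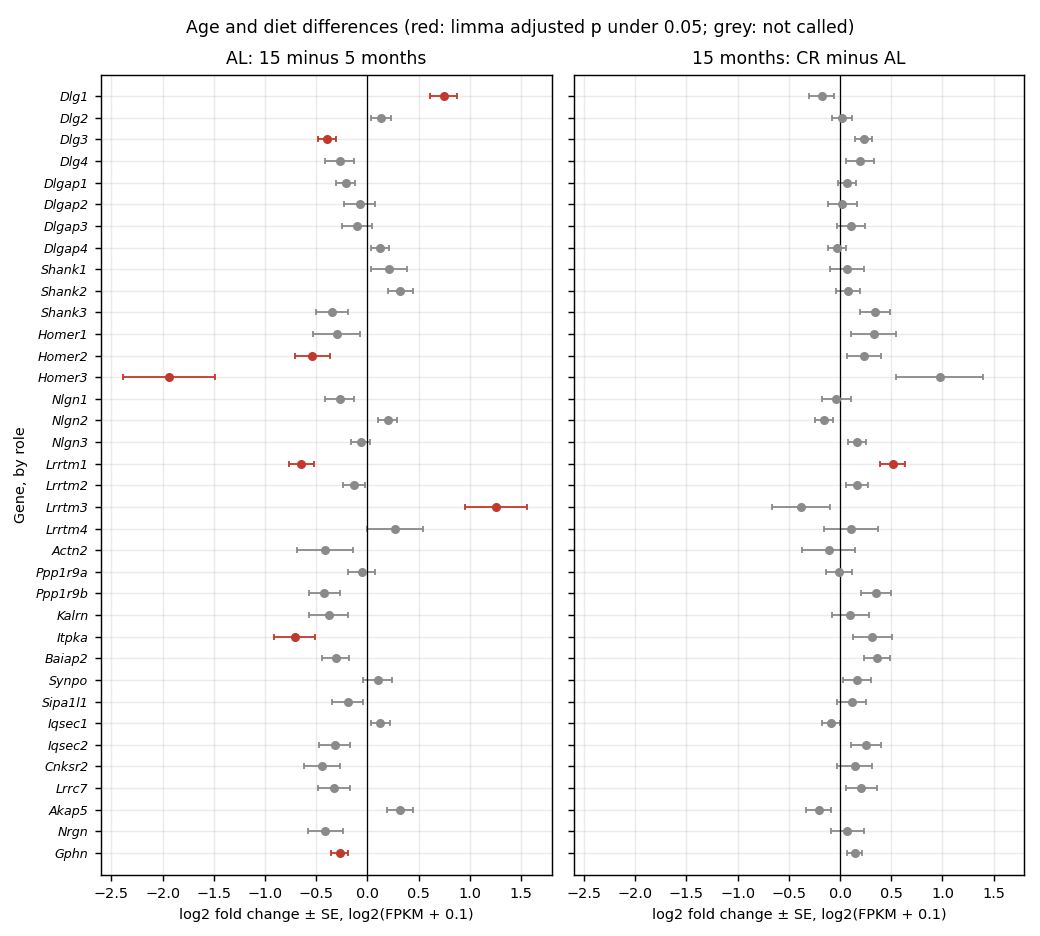
Log2 fold change ± SE of log2(FPKM + 0.1) for the 36 members by role, for 15 minus 5 months in AL mice (left) and CR minus AL at 15 months (right), with called members in red; both panels use the same 6 AL libraries at 15 months. On the left 8 members are called and 25 of 36 lie below 0, and on the right 1 member, Lrrtm1, is called and 27 lie above 0.

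The region score was also added to the fit as a covariate. For age in AL mice, 0 members and 0 genes of all tested were called by limma, with 7 members and 12.8% of all genes at an unadjusted p under 0.05. The members' median log2 fold change was then 0.18, 24 of 36 being positive, and Homer2 and Itpka changed direction, to 0.18 (adjusted p = 0.706) and 0.18 (adjusted p = 0.741). The other 6 called members kept their direction, at 0.32 for Dlg1, -0.20 for Dlg3, -1.01 for Homer3, -0.34 for Lrrtm1, 0.34 for Lrrtm3 and -0.28 for Gphn, which had been -0.27 without the covariate. Their limma adjusted p ranged from 0.374 to 0.771, and the SE of Gphn was 0.13 in this fit. Homer2 and Itpka had an SE of 0.18 and 0.19. The score did not overlap between the AL ages, so neither the kept nor the changed directions separate age from the score. It holds no CA3 or dentate markers, so this fit does not account for them. The 17 members called with the 2 AL groups alone were the 8 above and Akap5, Baiap2, Cnksr2, Iqsec2, Lrrc7, Nlgn2, Ppp1r9b, Shank2 and Shank3. Within groups, across all 22 libraries after subtracting group means, 144 relations between the members and 4 marker lists (CA1, neocortex and subiculum, CA3 and dentate) were computed. Dlg1 followed the neocortex and subiculum list (Pearson r = 0.77, permutation p = 0.00029, adjusted 0.0209; Spearman rho = 0.73, p = 0.00104, adjusted 0.0499), with r = 0.61 without the 2 farthest libraries. Homer2 followed the CA1 list (r = 0.74, permutation p = 0.00074, adjusted 0.0355; rho = 0.74, p = 0.00077, adjusted 0.0499), with r = 0.73 on leaving out 2 libraries. Homer3 followed the CA3 list (r = 0.73, permutation p = 5e-05, adjusted 0.0072; rho = 0.71, p = 0.00027, adjusted 0.0389), with r = 0.61 on leaving out 2. Itpka followed the CA1 list by r = 0.75 (permutation p = 0.00107, adjusted 0.0385), but not after adjustment by rho = 0.70 (permutation p = 0.00181, adjusted 0.0652). The remaining relations did not pass by both measures.

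**Figure D4:**
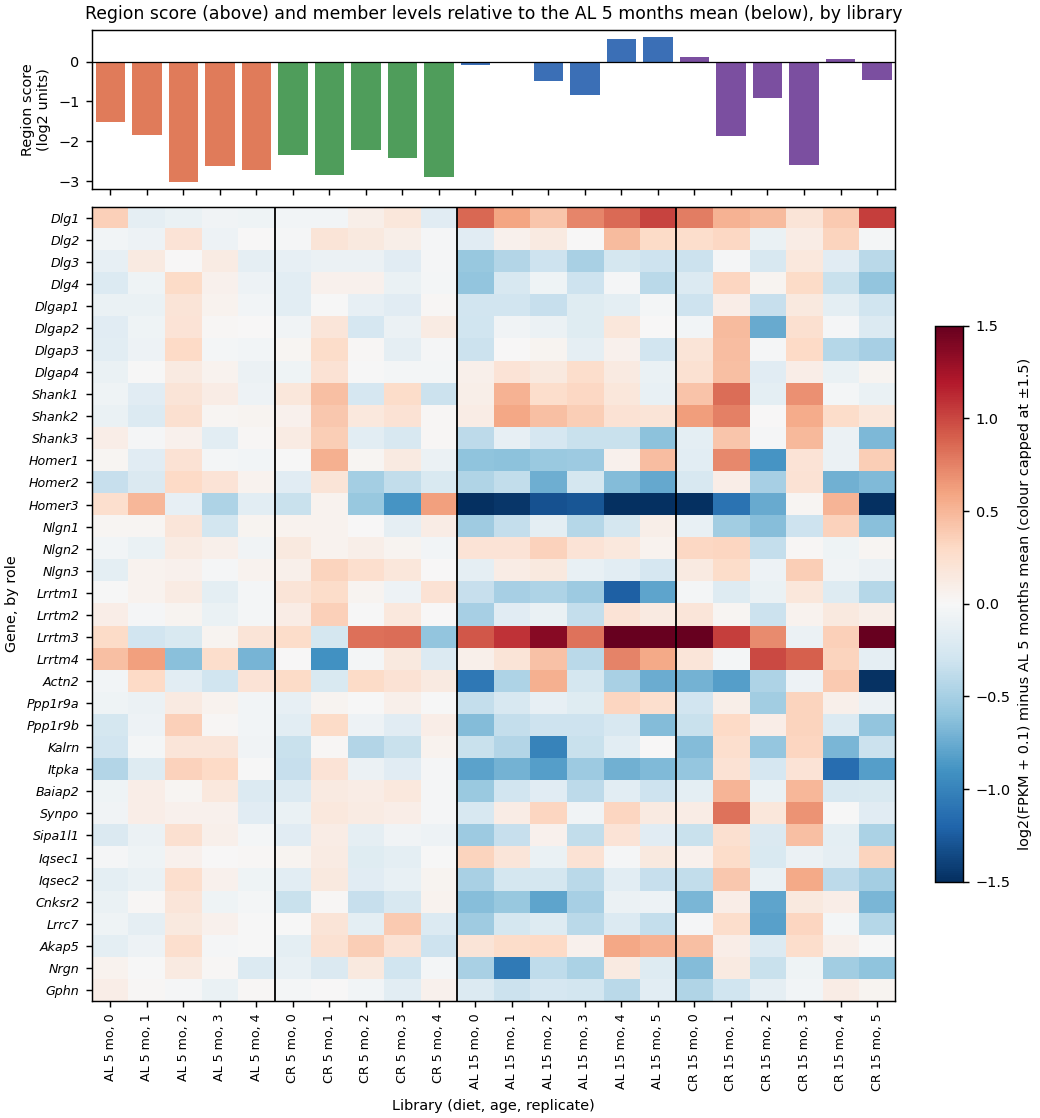
Region score of each library (bars, log2 units, coloured by group) above a map of the 36 members, each value being log2(FPKM + 0.1) minus the mean of AL mice at 5 months, with colour limits at ±1.5. Replicates 1 and 3 of the CR group at 15 months have low scores (-1.86 and -2.59) and higher levels in many rows than the other libraries of their group.

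Between diets at 15 months, Lrrtm1 was the member that changed, being higher in CR mice. It had a lowest, median and highest value of 40.6, 49.5 and 61.5 FPKM in CR mice and 23.3, 38.2 and 43.1 FPKM in AL mice. In all 5 of 6 CR libraries lay above every AL library and the sixth within their range. The means were 50.4 ± 7.01 and 35.7 ± 7.12 FPKM (SD, n = 6 each), a log2 fold change of 0.51 (SE 0.12, adjusted p = 0.0483, exact permutation p = 0.00433). This is 1 of 36 members beside 0.742% of all genes called (126 of 16978; 0.330% higher and 0.412% lower in CR mice). That count over all genes moved with single libraries. It fell from 126 to between 15 and 73 on leaving out any 1 of 10 libraries (each AL library, and CR replicates 1 to 4), and was 732 (4.31%) without CR replicate 0 and 492 (2.90%) without CR replicate 5. The call lay close to the threshold and was lost in 17 of 24 alternative settings, over which the adjusted p ranged from 0.0230 to 0.268. At 5 months Lrrtm1 read 62.7, 66.2, 56.5, 52.0 and 63.7 FPKM in CR mice.

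A further 5 members had an unadjusted p under 0.05 between diets at 15 months without passing adjustment, 6 in all (16.7%) beside 17.1% of all genes. All were higher in CR mice: Homer3 by 0.97 on the log2 scale (adjusted p = 0.250), Baiap2 by 0.36 (adjusted p = 0.158), Ppp1r9b by 0.35 (adjusted p = 0.227), Shank3 by 0.34 (adjusted p = 0.252) and Dlg3 by 0.23 (adjusted p = 0.164). Over the members, 27 of 36 log2 fold changes were positive, with a median of 0.11 against -0.00 over all genes tested. In the same comparison 6 of 7 CA1 markers (median 0.79) and 5 of 5 dentate markers (median 1.38) were positive. So were 4 of 5 CA3 markers (median 0.20) and 4 of 8 neocortex and subiculum markers (median -0.16). Of these markers 0 were called by limma, and in that order 3, 2, 0 and 3 had an unadjusted p under 0.05. Their part in the members' difference was not tested. The groups overlapped for every member, whereas 0.984% of all genes did not overlap. The AL libraries at 15 months enter this comparison and the age comparison in AL mice alike, so the opposite signs in them are not independent.

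Variation between CR mice at 15 months was wide. The median SD of log2 level over the members was 0.37 in that group, against 0.14, 0.15 and 0.21 in AL at 5 months, CR at 5 months and AL at 15 months. Over the 13839 genes with a mean of at least 1 FPKM the medians were 0.23, 0.14, 0.15 and 0.17 in the same order. For 30 of 36 members this group had the largest SD of the 4, and Homer3 had the highest, 1.16. Replicates 1 and 3 held the top value of the group in 25 members, and both were above the other 4 libraries in 20 members, a pattern found in 9.37% of all genes tested. No member had both below the other 4 (7.54% of all genes). This pair was picked after its high member levels had been seen, so these shares are not a test of the members. No share over all genes is given for the counts of 25 and 30. The mean log2 level over the members was 5.66 and 5.68 in replicates 1 and 3, and that of the other 4 ranged from 5.18 to 5.37. The CA1 markers, as the mean log2 level of the list, were at 5.60 and 5.37 in these libraries and from 3.07 to 4.70 in the other 4. Not every CA1 marker followed this order, Mpped1 being highest in replicate 0 (148 FPKM, beside 145 and 113 FPKM in replicates 1 and 3). The dentate list was at 2.54 and 4.41, and from -0.44 to 3.70 in the other 4. The part of these markers in the members' levels was not tested.

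Leaving out these 2 libraries, which were picked after their high member levels had been seen, a choice that by itself lowers the CR mean of many members, the diet comparison at 15 months had 0 called members and 1 called gene. The members' median log2 fold change was then -0.04, with 15 positive and 21 negative. Lrrtm1 was 0.46 (adjusted p = 0.245) and Homer3 0.76 (adjusted p = 0.582), while Dlg3, Shank3 and Itpka were 0.11, 0.11 and 0.01. The CR libraries left read 2.35, 8.82, 21.3 and 4.14 FPKM for Homer3 (replicates 0, 2, 4 and 5). Replicate 4, the highest of these, also had the highest CA3 list level of its group (mean log2 3.86). In the other CR libraries at 15 months that level ranged from 2.34 to 3.06. The part of the CA3 markers in the Homer3 value was not tested. With the region score as a covariate and all libraries kept, 0 members and 6 genes of all were called, and Lrrtm1 was 0.40 (adjusted p = 0.268).

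**Figure D5:**
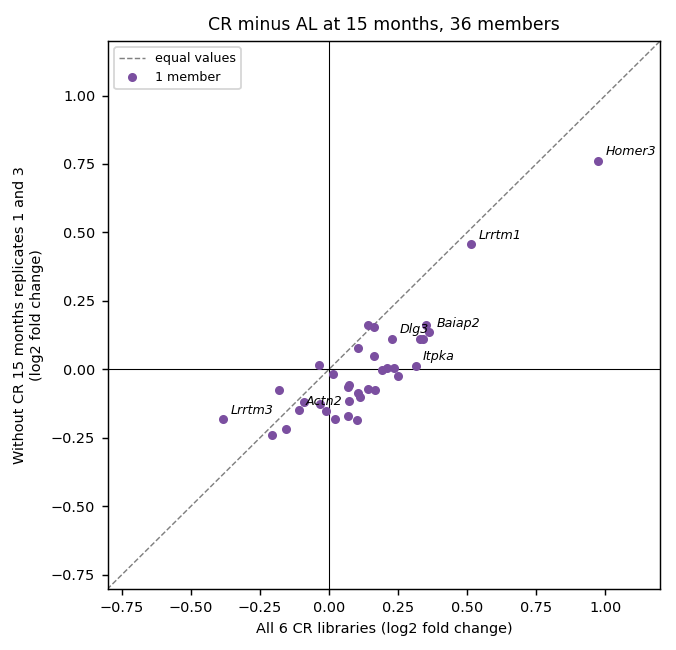
Log2 fold change of CR minus AL at 15 months for each of the 36 members with all 6 CR libraries (horizontal) and without CR replicates 1 and 3 (vertical), with the dashed line marking equal values. Most points lie below the line, the median going from 0.11 to -0.04, while Lrrtm1 (0.51 and 0.46) and Homer3 (0.97 and 0.76) stay above 0. In the CR libraries left, Homer3 spread from 2.35 to 21.3 FPKM.

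In the remaining comparisons Dlg1 was the member called. Between 15 and 5 months in CR mice it rose by 0.56 on the log2 scale (SE 0.13, adjusted p = 0.0178), 1 of 36 members beside 3.36% of all genes (1.10% higher and 2.26% lower), and its ages did not overlap, as for 3.26% of all genes. Older CR mice against AL mice at 5 months gave 0.56 as well (SE 0.13, adjusted p = 0.0210), 1 of 36 members beside 3.12% of all genes (1.38% higher and 1.73% lower). In it the groups overlapped for every member, while 2.94% of all genes did not overlap. At an unadjusted p under 0.05 there were 4 members with age in CR mice (Dlg1, Nlgn1, Lrrtm3 and Actn2) beside 18.0% of all genes, and 5 against AL mice at 5 months (Dlg1, Shank2, Homer3, Nlgn1 and Lrrtm3) beside 19.3%. That comparison and the one within CR mice share the older CR libraries. With the region score as a covariate Dlg1 was at 0.27 (adjusted p = 0.418) within CR mice and 0.31 (adjusted p = 0.335) against AL mice at 5 months, and with the groups compared alone the adjusted p was 0.0604 and 0.0911. The calls were lost in 3 and 5 of 23 alternatives. At 5 months 0 members and 0 of all genes were called between diets by limma, with 0 members and 4.65% of all genes at an unadjusted p under 0.05, and the groups overlapped for every member (1.36% of all genes did not). The largest log2 fold changes there were -0.22 and 0.22. The interaction of age and diet, which tests whether the age difference varied with diet, called 0 members and 0 genes, with Dlg3 (0.33) and Lrrtm1 (0.38) at an unadjusted p under 0.05 (7.66% of all genes). A difference in the age response of any member between diets was thus not shown.

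Other genes of the postsynapse were read from 4 lists, 91 genes in all that were tested. With age in AL mice, 6 of 29 other scaffold and signaling genes rose and 6 fell (median log2 fold change -0.06), where 20.6% of all genes were called. Among them were Cit, a citron kinase that binds MAGUK proteins, from 4.92 ± 0.70 to 15.9 ± 1.67 FPKM (SD, n = 5 and 6; log2 fold change 1.68, adjusted p = 0.000494), Sipa1l3 (-1.48, adjusted p = 0.00187) and Tanc1 (-1.47, adjusted p = 0.00320). Of 42 other adhesion genes 5 rose and 3 fell (median 0.10), with Cbln1, a secreted bridge between neurexins and glutamate delta receptors, at 2.82 (adjusted p = 0.00218), Mdga1, which masks neuroligins, at -1.58 (adjusted p = 0.00102) and Slitrk5 at -0.65 (adjusted p = 0.00539). In the inhibitory list 1 of 12 rose and 4 fell (median -0.06), with Gabra5 at -1.25 (adjusted p = 0.00155), Igsf9b at 1.16 (adjusted p = 0.0229) and Gabra2 at -0.57 (adjusted p = 0.0182). The receptors held by the scaffolds showed 0 rising and 5 of 8 falling (median -0.47), Gria1, Grin2a and Grin2b among them at -1.31, -1.17 and -0.87 (adjusted p = 0.000707, 0.00579 and 0.0214). Between diets at 15 months 0 genes of these lists were called by limma, with 15 of 29, 6 of 42, 2 of 12 and 3 of 8 at an unadjusted p under 0.05 in the order given, beside 17.1% of all genes.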

How the data were processed

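Total RNA from frozen CA1 microdissections was made into TruSeq libraries, 1 per mouse. Per the labels and the methods, the authors aligned paired reads to mm10 with TopHat, removed duplicates with Picard and deposited FPKM from the Cufflinks package, with bias and multi-read correction (tool versions and annotation not given in the sources used here). The files hold no counts and no depth of single libraries, so the authors' count-based test was not run. The members, role groups, gene lists and tests were chosen with earlier results of these data known.

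Here, limma 3.58.1 (R 4.3.3; lmFit, contrasts.fit, eBayes with an intensity trend) was fitted to log2(FPKM + 0.1) of 16978 genes (minimum mean 0.1 FPKM) in the 22 libraries together, with Benjamini-Hochberg adjustment over all genes within each of 6 contrasts and a threshold of 0.05. Fold changes on this scale understate changes of low genes. The fit was tested on simulated data, with 200 genes changed and values drawn independently for each gene. That simulation held no differences shared across the genes of a library, such as those in the region score. Single members were tested by exact two-sided permutation of group means of log2(FPKM + 0.1), with Python 3.11.15 and scipy 1.17.1. Correlations used 100000 permutations within groups. Values were given by library (lowest, median and highest in groups of 6) for the called member with the lowest adjusted p of each role group with age in AL mice and for members called between diets. Lrrtm3 was added after its values were seen, as the paralog of Lrrtm1. Of each gene list the 3 called genes with the largest change and a mean of at least 1 FPKM were named. Promoter windows came from RefSeq (GRCm38.p6), and gene spans and exons from GENCODE on GRCm38. Alternatives were another pseudocount, filter, scaling, trend, set of groups, replicate block, region covariate and each library left out.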

Additional observations from a re-analysis of the deposited data

Results flagged for a closer look

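Of 144 groups of 5 or 6 libraries (36 members in 4 groups), 4 had a highest or lowest library whose gap to the nearest other was large for the range of the group (2.78%, where chance gives about 1 in 20). Dlg1 was 35.0 FPKM in AL 5 months replicate 0, with the next library at 26.5 FPKM. Dlgap3 was 113 FPKM in AL 5 months replicate 2, with the next at 89.9 FPKM, in the library that held the highest value of its group for 25 of the 36 members. Dlgap4 was 74.9 FPKM in CR 5 months replicate 1, with the next at 64.3 FPKM, in a library that was highest for 19 members. Lrrtm2 was 14.0 FPKM in CR 15 months replicate 2, below the next at 17.9 FPKM, in a library that was lowest for 15 members. The high Dlg1 library lies nearest to the older AL mice, which start at 36.6 FPKM. It also had the highest region score (-1.52) and the highest neocortex and subiculum level (mean log2 3.46) of its group. The part of these in its Dlg1 value was not tested.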

How the results depend on the processing

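Dlg1, Dlg3, Homer3, Lrrtm1 and Lrrtm3 passed with age in AL mice in 21 of 22 alternatives, the exception being the region score as a covariate. That covariate took every count of called members and of called pathway genes with age in AL mice to 0, reversed Homer2 (0.18) and Itpka (0.18), and took the calls of Dlg1 in CR mice over age and against AL mice at 5 months, and of Lrrtm1 between diets, to 0. Homer2 lost its call in 6 alternatives, Itpka without AL 5 months replicate 2 (adjusted p = 0.0548) and Gphn without AL 5 months replicate 0 (adjusted p = 0.0503); the cause was not tested.

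Between diets at 15 months the count of higher members was 0 with a pseudocount of 0.01, no filter on low values, quantile normalization, no intensity trend, the groups compared alone or without CR 15 months replicates 1 and 3 (added after seeing the data). With the groups compared alone, 5 members rose and 12 fell with age in AL mice, and 19 other scaffold and 15 other adhesion genes were called, beside 25.2% of all genes. The counts in CR mice over age and against AL mice at 5 months were 0, beside 1.93% and 1.2% of all genes. With a common median, which shifted all genes by 0.05 in the age comparison, 5 other adhesion genes were called, beside 22% of all genes. Without CR 15 months replicates 1 and 3, a choice that by itself lowers the CR mean of many members, 2 members were called with age in CR mice. Dlg1 was higher and Itpka lower, beside 4.86% of all genes called. Against AL mice at 5 months 2 members rose and 5 fell, beside 5.58% of all genes.

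Leaving out 1 library at a time gave 2 to 2 higher and 4 to 6 lower members with age in AL mice, 0 to 2 higher between diets at 15 months, 0 to 1 higher and 0 to 1 lower with age in CR mice, and 0 to 2 higher and 0 to 1 lower for CR at 15 months against AL at 5 months. In the same order, 14% to 20.2%, 0.0883% to 4.31%, 1.95% to 4.56% and 1.06% to 5.43% of all genes were called. Pathway genes called with age in AL mice ranged from 10 to 12 (other scaffold), 5 to 10 (other adhesion), 4 to 6 (inhibitory) and 4 to 5 (receptors), and between diets at 15 months from 0 to 4, 0 to 1, 0 to 1 and 0 to 1. Dlg1 against AL mice at 5 months lost its call without AL 5 months replicate 1, 2 or 4 (adjusted p = 0.0597, 0.0707 and 0.0632), and with age in CR mice without CR 5 months replicate 4 (adjusted p = 0.0592).

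The mice were not treated as paired by replicate number. Over 31 same-numbered pairs the correlation of deviations from group means ran from -0.139 to 0.163, with 2 above 0.1. Differently numbered pairs were not computed, so these values have no reference to be read against. A replicate block gave 10 called members with age in AL mice, beside 22.1% of all genes, and 1 between diets at 15 months, beside 1.9%. In that diet comparison 1 other scaffold, 1 other adhesion and 1 receptor gene were also called. The files give no read total per library, so no floor is given for low values.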
